A study of Mus musculus with 20 samples.

Results

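Interferon-gamma is a cytokine made mainly by activated T cells and natural killer cells. Its receptor signals through the kinases JAK1 and JAK2, and target genes respond through DNA elements called GAS elements or, by way of the induced transcription factor IRF1, through interferon-stimulated response elements (ISREs). The genes it induces include chemokines that attract T cells through the receptor CXCR3, 2 families of GTPases that act on membranes around intracellular pathogens, and IDO1, an enzyme that degrades tryptophan. Type I interferons induce many of the same genes through ISREs. A set of 10 such genes was followed by name: the chemokines Cxcl9, Cxcl10 and Cxcl11, the guanylate binding proteins Gbp2, Gbp3 and Gbp5, the immunity-related GTPases Iigp1, Igtp and Irgm1, and Ido1. Of these, 9 had a probe set with a single gene symbol among the 17097 genes measured, and Gbp5 is not analysed here.

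The 9 genes were read in 20 tumours grown in the caecum of C57BL/6J mice from 5 mouse colorectal cancer organoid (MTO) lines. MTO68 and MTO93 are parental LAKTP lines, MTO140 is an LAKTP line of type LiM, MTO54 is a parental LAKP line and MTO207 a parental LAKT line, and the labels do not spell out these letters. Each line gave 2 control tumours (replicates 1 and 2, numbers that only name them) and 2 tumours from mice given galunisertib, which blocks the kinase of the TGF-beta type I receptor, with 2 gavage doses a day of 10 mg that began on day 11 and ended at week 5. Treated tumours carry the label LY, read here as galunisertib. What control mice received is not given in the sources used here. MTO140 was injected as organoids under the serosa of the caecum, whereas the other lines were first grown under the skin and transplanted as pieces of 1 mm3. Each line is a single line, and the arrays of a line shared 1 strip, which leaves line and strip confounded: they cannot be told apart. Whole fragments were used, so each value mixes tumour and host cells, and fewer cells of a type cannot be told apart from less RNA per cell.

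Values are log2 RMA levels per probe set (robust multi-array average, a background-corrected and quantile-normalized summary), with 1 array per tumour. The median of an array was 4.93 to 5.12, and its SD over probe sets was 1.46 to 1.83. The arrays of a line thus did not share 1 scale. In MTO68 the SD was 1.76 and 1.47 in controls and 1.82 and 1.81 in treated tumours. In MTO207 it was 1.46 in both controls and 1.57 and 1.55 in treated tumours. Genes entered the tests when 2 or more arrays exceeded a level of 4.16, the 25th percentile of the table. All 9 genes with a probe set passed, and 15556 genes passed in all. Cxcl11 exceeded that level in 7 of 20 tumours and Gbp3 in 12 of 20, whereas the other 7 genes exceeded it in all 20. Differences in Cxcl11 and Gbp3 were therefore measured close to the bottom of the scale. Epithelial markers were high throughout, and the mean of 11 of them lay between 8.76 and 10.84. The number of arrays limits the precision, and levels of different genes were not compared with each other because each probe set has its own response.

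Promoters are shown as a description of the genes, and whether their motifs bear on the levels was not tested. RefSeq promoter windows of 250 bases before the transcription start (GRCm38.p6) were at hand for 6 of the 9 genes, with 7 start sites. Both strands were searched for an ISRE core, GAAANNGAAA, and for a GAS element, TTCNNNGAA, which share no required overlap. The core occurred in 5 of the 6 genes, or 5 of 7 windows, and a GAS element in 1. The genes were chosen as known interferon targets, so these counts are no test. Among 32851 promoter windows of the same length, 2.98% held the core, 7.02% a GAS element and 0.332% both. The 5 windows with a match are printed 5′ to 3′ on the strand of the gene, with matches in capitals.
Cxcl10: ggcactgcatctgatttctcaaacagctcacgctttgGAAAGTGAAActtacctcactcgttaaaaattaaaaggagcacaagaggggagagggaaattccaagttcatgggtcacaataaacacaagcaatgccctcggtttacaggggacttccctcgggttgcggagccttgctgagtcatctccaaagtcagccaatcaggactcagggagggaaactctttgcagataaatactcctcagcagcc
Gbp2: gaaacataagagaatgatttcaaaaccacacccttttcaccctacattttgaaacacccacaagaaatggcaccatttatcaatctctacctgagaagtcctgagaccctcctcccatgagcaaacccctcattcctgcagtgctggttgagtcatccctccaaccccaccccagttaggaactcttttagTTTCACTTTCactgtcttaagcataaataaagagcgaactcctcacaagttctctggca
Gbp3: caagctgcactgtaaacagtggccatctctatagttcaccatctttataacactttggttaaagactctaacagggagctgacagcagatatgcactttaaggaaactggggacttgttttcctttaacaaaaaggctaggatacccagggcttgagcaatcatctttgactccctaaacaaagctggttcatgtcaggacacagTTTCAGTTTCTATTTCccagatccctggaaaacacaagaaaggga
Igtp: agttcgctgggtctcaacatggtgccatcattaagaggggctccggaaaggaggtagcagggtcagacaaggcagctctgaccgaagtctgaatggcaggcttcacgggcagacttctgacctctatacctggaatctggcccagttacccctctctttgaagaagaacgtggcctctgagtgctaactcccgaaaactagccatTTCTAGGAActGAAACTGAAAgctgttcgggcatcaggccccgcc
Irgm1: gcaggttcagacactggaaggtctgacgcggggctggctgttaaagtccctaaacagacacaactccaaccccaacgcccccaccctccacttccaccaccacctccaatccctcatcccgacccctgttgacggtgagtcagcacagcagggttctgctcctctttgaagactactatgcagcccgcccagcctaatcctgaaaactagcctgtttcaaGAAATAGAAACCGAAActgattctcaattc
The Cxcl10 window (chr5:92348890-92349139, minus strand) held the core at -213 from the start. In the Gbp2 window (chr3:142620413-142620662, plus strand) the core lay at -59 on the opposite strand. The Gbp3 window (chr3:142559794-142560043, plus strand) held 2 overlapping cores at -45 and -39 on the opposite strand, whereas its second start site held none. The Igtp window (chr11:58199306-58199555, plus strand) held both motifs side by side, the GAS element at -45 and the core at -34. In the Irgm1 window (chr11:48871421-48871670, minus strand) 2 overlapping cores began at -30 and -24. Cxcl9, whose window (chr5:92328080-92328329, minus strand) lies on the same chromosome as that of Cxcl10, held neither string in these 250 bases. A match is a string of letters and not a measured binding site. No window was at hand for Cxcl11, Iigp1 and Ido1.

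The chemokines varied widely among tumours of the same line and treatment. Cxcl9, a CXCR3 ligand that depends strongly on interferon-gamma, read 8.69 and 9.01 in the control tumours of MTO68 and 7.95 and 8.99 in the treated ones. In MTO93 it read 10.18 and 9.19 in controls and 9.75 and 9.85 in treated tumours. The 4 tumours of each of these lines lay close together, and those of the other lines did not. Cxcl9 read 6.29 and 8.67 in the controls of MTO140 against 10.20 and 8.52 after treatment, 8.72 and 4.86 against 9.92 and 8.56 in MTO54, and 10.14 and 5.34 against 8.75 and 8.69 in MTO207. The 3 lowest of all 20 tumours were thus controls, 1 in each of these 3 lines, while the other control of the same line was above a treated tumour in each of them. The gap between the pair of MTO207 controls, 4.80, was 27.9-fold on the linear scale.

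Cxcl10, a CXCR3 ligand that type I interferons also induce, followed the same tumours. It ranged over 10 controls from 4.91 to 8.42 with a median of 7.17 and over 10 treated tumours from 5.56 to 8.96 with a median of 7.39. The 2 lowest levels were those of the second controls of MTO207 (4.91) and MTO54 (5.12), and the highest was the first treated tumour of MTO140 at 8.96, whose fellow treated tumour read 5.56. Treated and control tumours overlapped in every line. Cxcl11, the third CXCR3 ligand, for which C57BL/6 mice carry a frameshift allele that gives no functional chemokine, was close to the lower end of the scale. It ranged from 3.62 to 4.62 in controls with a median of 3.90 and from 3.62 to 5.94 in treated tumours with a median of 4.28. Its highest level was again that of the first treated tumour of MTO140, and no MTO68 tumour exceeded 3.88. Its pair of probe sets had r = 0.55 over 20 tumours.

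**Figure D1:**
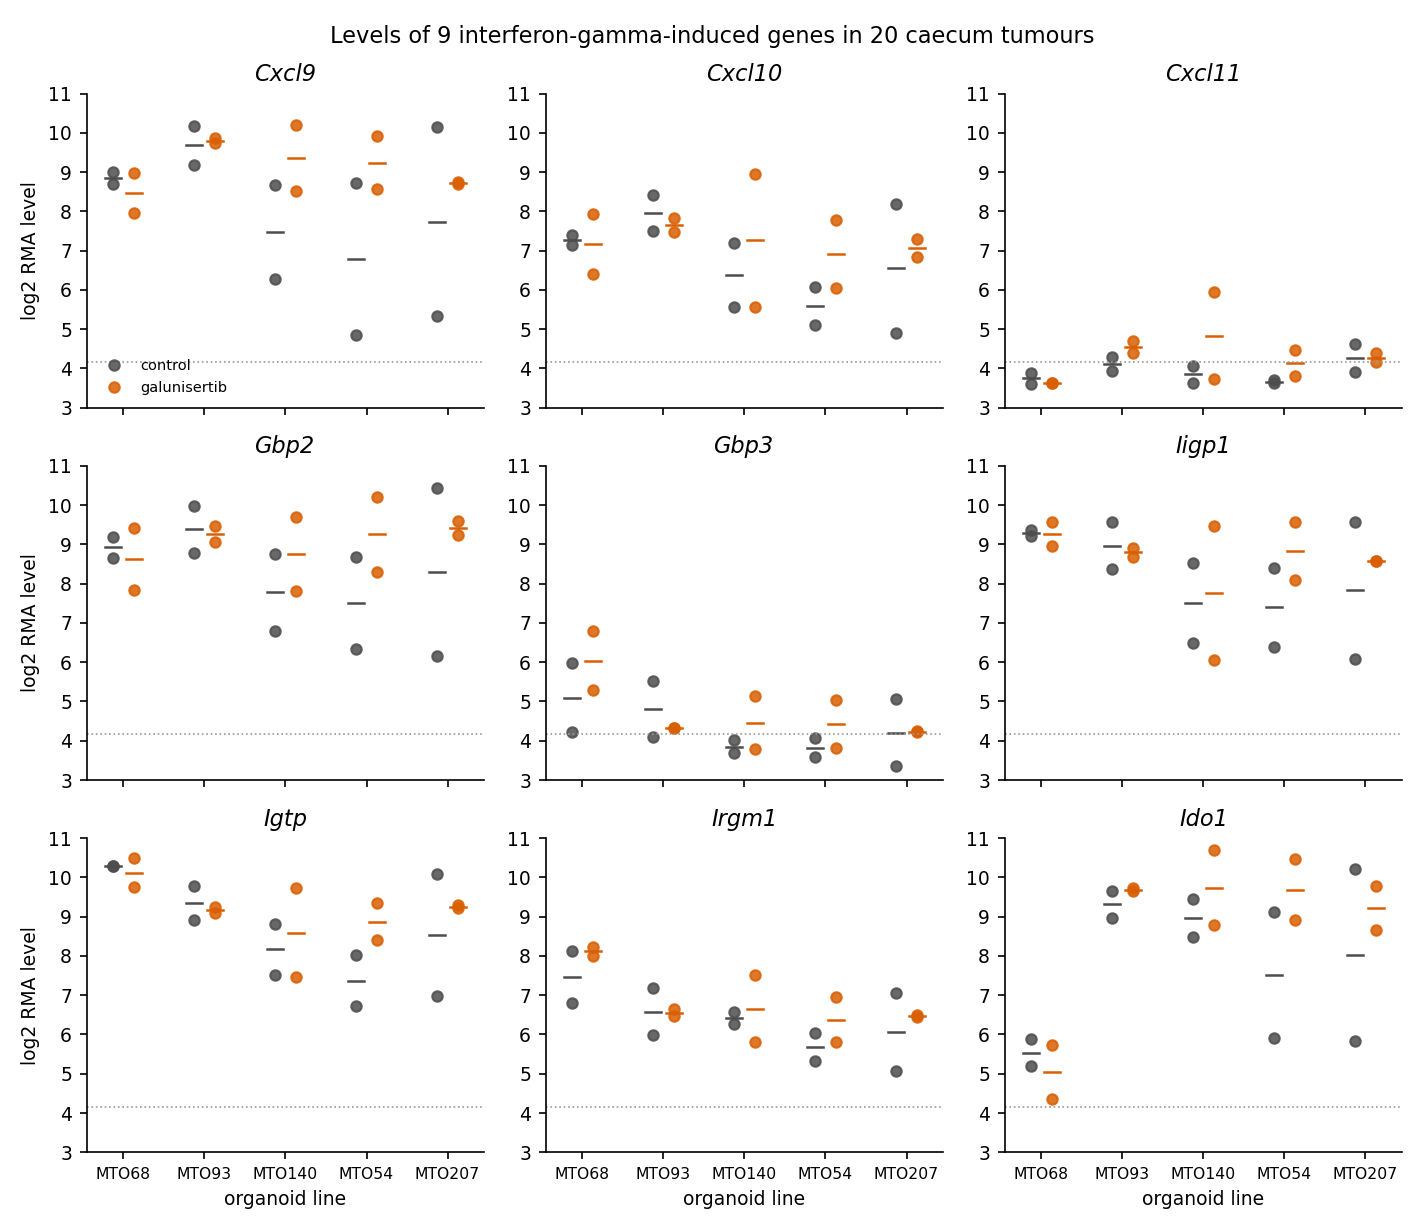
Log2 RMA level (y axis) of 9 genes in 20 tumours, by organoid line (x axis). Grey points are control tumours, orange points galunisertib tumours, short bars the mean of each pair, and the dotted line the level of 4.16 used as a filter; panels share an axis, but levels of different genes are not comparable. Tumours of a pair differ widely in MTO140 and MTO54 and among the controls of MTO207, and in MTO68 Ido1 lies at 4.35 to 5.88 while Igtp lies at 9.76 to 10.48.

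The guanylate binding proteins are large GTPases that assemble on the membranes of pathogens and their vacuoles. Gbp2 read 9.18 and 8.66 in the controls of MTO68 and 7.85 and 9.41 in its treated tumours, and 9.99 and 8.77 against 9.05 and 9.46 in MTO93. In MTO140 the controls read 6.79 and 8.76 and the treated tumours 9.69 and 7.82. In MTO54 they read 8.67 and 6.35 against 10.22 and 8.29, and in MTO207 10.42 and 6.17 against 9.59 and 9.23. The lowest and the highest Gbp2 level of all tumours were thus both controls of MTO207. The second Gbp2 probe set varied with the one used (r = 0.99 over 20 tumours). Gbp3, which lay at or under the filter level in 8 of 20 tumours, read 5.97 and 4.22 in the controls of MTO68 and 5.29 and 6.79 in its treated tumours. The values of 6.79 and 5.97 were the 2 highest of all 20 tumours, whereas 4.22 was below the mean of 4.53. Outside MTO68 its highest levels were 5.53 in the first MTO93 control, 5.13 in the first treated MTO140 tumour and 5.07 in the first MTO207 control.

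The immunity-related GTPases (IRGs) act on vacuoles of intracellular parasites and bacteria. Some are effectors, such as Iigp1, and some are regulators that protect host membranes, such as Irgm1. Iigp1 lay between 8.96 and 9.57 in the 4 MTO68 tumours and between 8.36 and 9.58 in MTO93. Elsewhere it was as low as 6.06 in the second treated tumour of MTO140, 6.08 in the second control of MTO207, 6.40 in the second control of MTO54 and 6.49 in the first control of MTO140. Igtp read 10.29 in both controls of MTO68 and 9.76 and 10.48 in its treated tumours. In the other lines it lay between 6.73, in the second MTO54 control, and 10.08, in the first MTO207 control, so that the MTO68 range overlapped with that of the other lines. Irgm1 read 8.13 and 6.80 in the controls of MTO68 and 8.01 and 8.22 in its treated tumours. In the 16 tumours of the other lines it lay between 5.07 and 7.50, and 3 of the 4 MTO68 tumours were above all of them.

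Ido1, which encodes the interferon-induced enzyme of the first step of tryptophan breakdown and is made by tumour, myeloid and endothelial cells, had a different order. It read 5.20 and 5.88 in the controls of MTO68 and 4.35 and 5.74 in its treated tumours. In MTO93 it read 9.66 and 8.96 against 9.72 and 9.64, and in MTO140 8.48 and 9.44 against 10.70 and 8.78. In MTO54 the controls read 9.12 and 5.91 and the treated tumours 10.46 and 8.92, and in MTO207 10.20 and 5.84 against 9.77 and 8.65. The 6 lowest levels were thus the 4 tumours of MTO68 and the second controls of MTO54 and MTO207. All other 14 tumours read 8.48 or more.

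Treated and control tumours were compared over the 5 lines to ask whether blocking the TGF-beta receptor moved these genes. The mean was higher after treatment for 9 of 9 genes, by 0.34 to 1.01 on the log2 scale with a median of 0.46, against a median of 0.0012 over all genes tested. In limma, with Benjamini-Hochberg adjustment over all genes, 0 of the 9 passed, and 0 had an unadjusted p under 0.05. The background was 0% of genes called, with 1238 of 15556 at an unadjusted p under 0.05. For Cxcl9 the control mean was 8.11 and the treated mean 9.12, which differ by 1.01 (SE 0.59, 95% interval -0.23 to 2.25, limma adjusted p = 0.686). Ido1 averaged 7.87 and 8.67, a difference of 0.80 (SE 0.52, interval -0.29 to 1.90, limma adjusted p = 0.691). Gbp2 differed by 0.68 (SE 0.50), Iigp1 by 0.45 (SE 0.47), Igtp by 0.46 (SE 0.37), Cxcl10 by 0.46 (SE 0.45), Irgm1 by 0.39 (SE 0.27), Cxcl11 by 0.35 (SE 0.21) and Gbp3 by 0.34 (SE 0.30), with limma adjusted p values between 0.689 and 0.771. Since the 9 genes vary together, their shared direction is not 9 separate observations. Every interval includes 0, and the upper bounds run from 0.80 for Cxcl11 to 2.25 for Cxcl9, so a rise of 4.74-fold in Cxcl9 lies just within what these data allow. Leaving out 1 array moved each of the 9 differences down by over 1.5 times. Without the second control of MTO207 the difference was 0.35 for Gbp2, 0.18 for Iigp1, 0.22 for Igtp, 0.25 for Irgm1 and 0.46 for Ido1. Without the first treated tumour of MTO140 it was 0.18 for Cxcl10 and 0.15 for Cxcl11, without the second control of MTO54 0.63 for Cxcl9, and without the second control of MTO68 0.17 for Gbp3.

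**Figure D2:**
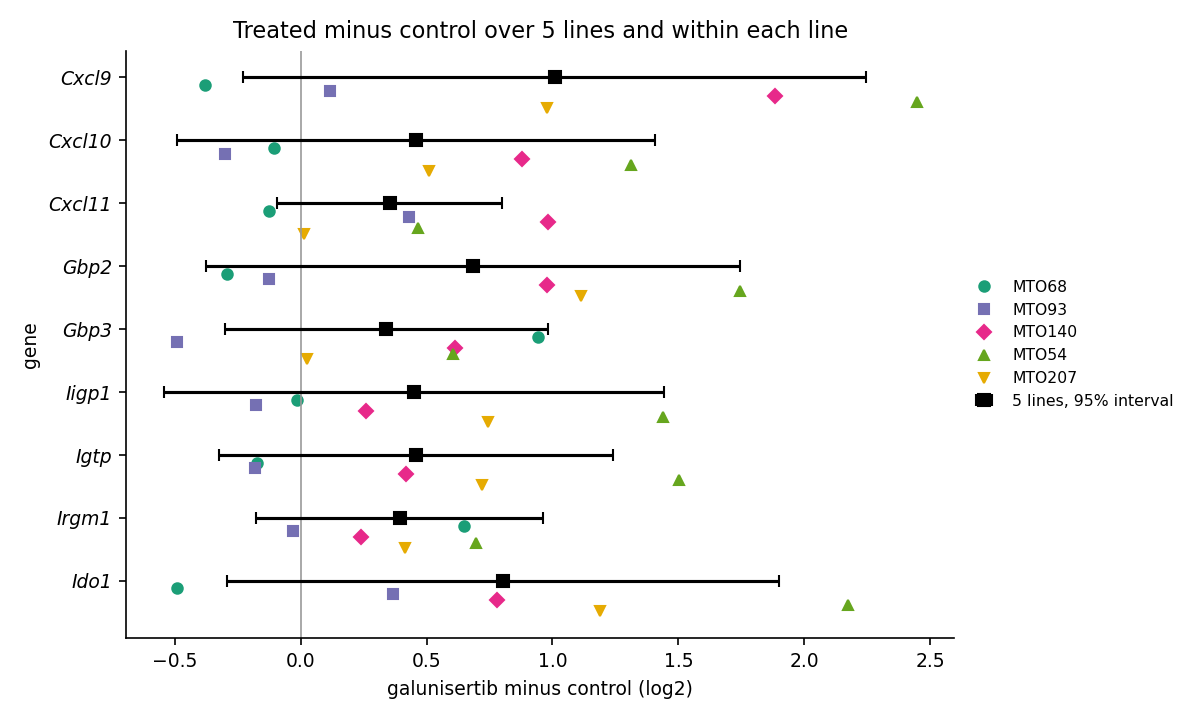
Log2 difference of galunisertib minus control (x axis) for 9 genes (y axis). Black squares with bars are the difference over 5 lines with its 95% interval, and coloured symbols, offset downwards for legibility, are the difference within each line (2 tumours against 2). All intervals include 0; differences in MTO54 (green triangles) are the largest for 7 of the genes and those in MTO68 and MTO93 lie close to or below 0 for most.

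Within single lines, none of the 9 genes passed in any line (limma, 2 tumours against 2, with the spread shared by all groups). The background was 2.01% of genes called for MTO68, 0.00643% for MTO140 and 0% for MTO54, MTO93 and MTO207. No member had an unadjusted p under 0.05 in any line. Means were higher after treatment for 9 of 9 genes in MTO140, MTO54 and MTO207, for 3 of 9 in MTO93 and for 2 of 9 in MTO68. In MTO54, Cxcl9 differed by 2.45 (SE 1.35), Ido1 by 2.17 (SE 1.21), Gbp2 by 1.74 (SE 1.19) and Igtp by 1.50 (SE 0.86), with limma adjusted p = 0.999 each. In MTO68, by contrast, Ido1 differed by -0.49 (SE 1.21), Cxcl9 by -0.38 (SE 1.35), and Gbp3 by 0.94 (SE 0.71). Both treated tumours exceeded both controls for Cxcl11 and Igtp in MTO54 and for Cxcl11 in MTO93, whereas 17.8% and 18.1% of all genes did so in these lines. The test that the effect differs between lines called 0 of the 9 genes, with the smallest unadjusted p at 0.536 (Cxcl11), against 0.0643% of all genes. Leaving out a single array turned the sign of 33 of the 45 differences within lines. For example, the Cxcl9 difference in MTO207 was -1.42 without the second control and 3.38 without the first.

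The spread between tumours of the same line and treatment was wide. The SD within groups was 1.59 for Cxcl9, which is higher than in 99.97% of the genes tested. It was 1.42 for Ido1, 1.40 for Gbp2, 1.34 for Iigp1, 1.27 for Cxcl10, 1.01 for Igtp, 0.83 for Gbp3, 0.77 for Irgm1 and 0.57 for Cxcl11, all above 95.8% of genes or more. The median over all genes was 0.22. The tumours that were high or low were largely shared. The first treated tumour of MTO140 was among the 5 highest of 20 for 8 of the 9 genes, and the first controls of MTO93 and MTO207 for 7 each. The second controls of MTO54 and MTO207 were among the 5 lowest for 8 genes each, and the first control and second treated tumour of MTO140 for 7 each. High and low tumours occurred in both arms.

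**Figure D3:**
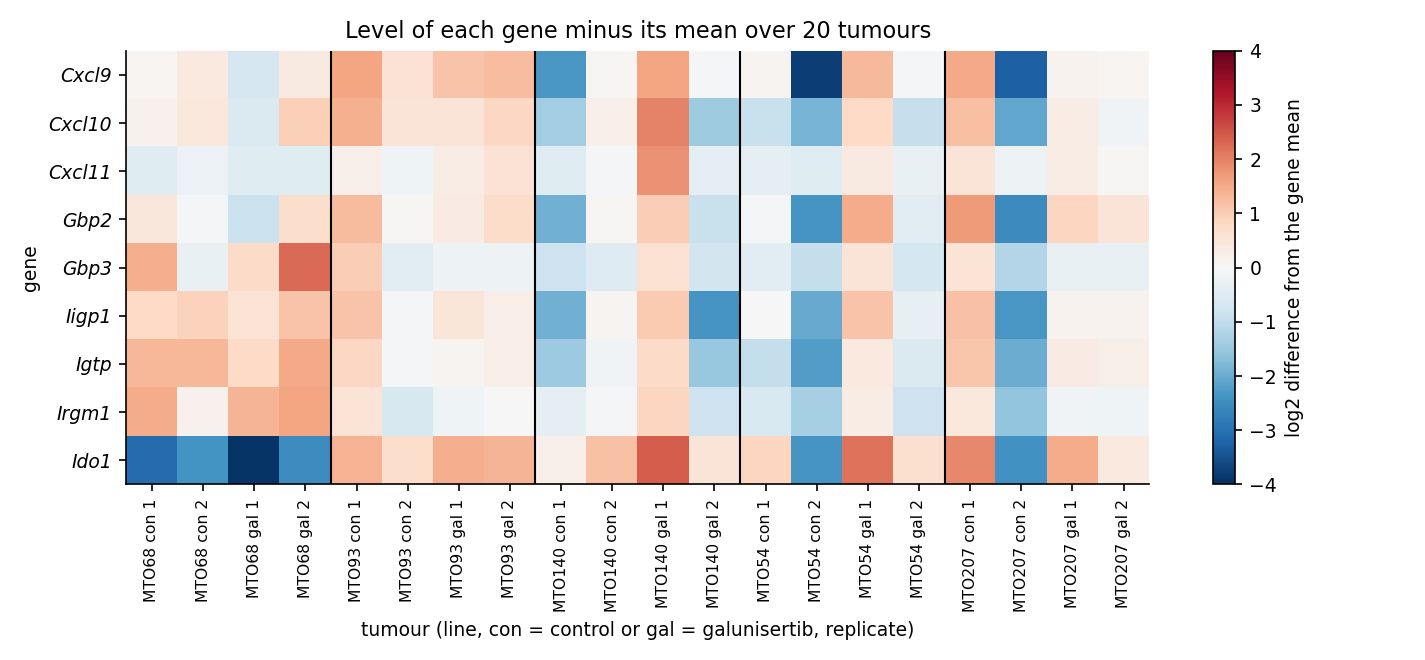
Level of each of 9 genes (rows) in each of 20 tumours (columns, 4 per line, con for control and gal for galunisertib) minus the mean of that gene over 20 tumours, on the log2 scale given by the colour bar. Columns are mostly of one colour, red in the first treated MTO140 tumour and blue in the second controls of MTO54 and MTO207, except in MTO68, where Ido1 is blue and Iigp1 and Igtp are red in all 4 tumours.

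This shared variation was measured for all 36 pairs of genes over 20 tumours with permutation tests (two-sided, 100000 resamples, adjusted over the 36 pairs). Unless permutation by sign is named, tumours were shuffled freely over lines and treatments, so permutation p values here and below take no account of line. Among the 28 pairs without Ido1, Pearson's r ran from 0.13 to 0.93 with a median of 0.75, and 24 pairs passed. The pair of chemokines Cxcl9 and Cxcl10 had r = 0.87 and rho = 0.94 (permutation p = 1e-05 each, the smallest the permutations can give, adjusted 4.5e-05 and 3.6e-05), and r = 0.83 without the 2 tumours farthest from the median. The GTPases Iigp1 and Igtp had r = 0.93 and rho = 0.92 (permutation p = 1e-05 each, adjusted 4.5e-05 and 3.6e-05), and r = 0.92 without the 2 farthest tumours. Gbp3 and Irgm1, both higher on average in MTO68, had r = 0.92 and rho = 0.93 with the same p values, and 0.90 without the 2 farthest. Within lines of 4 tumours each, r lay between 0.81 and 0.99 for Cxcl9 with Cxcl10 and between 0.93 and 1.00 for Iigp1 with Igtp. Other pairs had low or negative values in MTO68, such as Cxcl11 with Irgm1 (-0.98) and with Gbp3 (-0.79), Cxcl9 with Irgm1 (-0.35) and Igtp with Irgm1 (-0.06). However, Cxcl11 exceeded the filter level in 0 of 4 MTO68 tumours. Its median there was 3.63, and only the second control stood apart, at 3.88. The r values of Cxcl11 in MTO68 thus rest largely on that tumour and show no opposed pattern of measurable levels. The 4 pairs that missed the threshold joined Cxcl11 with Gbp3, Iigp1, Igtp and Irgm1. With the mean of each line and treatment group removed, the 28 pairs ran from 0.55 to 0.98.

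The level of Ido1 in MTO68 lay apart from that in most other tumours. Over 20 tumours, which join MTO68 with lines that lie apart from it, its r with the other 8 genes ran from -0.17 to 0.66, and 3 of 8 pairs passed (Cxcl11 at 0.66, Cxcl9 at 0.58 and Gbp2 at 0.55). With line and treatment means removed it ran from 0.60 to 0.96. Its r with Igtp was 0.01 and rho 0.04 (permutation p = 0.955 and 0.881, adjusted 0.955 and 0.881), and r was -0.36 without the 2 farthest tumours. Because of that gap the relation was also taken over the other 16 tumours, a choice made after the data were seen. The p values over these 16 tumours take no account of that choice. There Ido1 and Igtp had r = 0.86 and rho = 0.86 (permutation p = 1e-05 and 6e-05, adjusted 2.1e-05 and 7.4e-05), Ido1 and Cxcl10 had r = 0.84 and rho = 0.87 (permutation p and adjusted p the same), and all 8 pairs passed with r from 0.63 to 0.93. Within the 4 MTO68 tumours alone, r of Ido1 was 0.91 with Igtp and with Cxcl10, 0.99 with Cxcl9 and -0.45 with Irgm1. In MTO68 the level of Ido1 was thus lower at a given level of Igtp or Cxcl10, while within the line its order among 4 tumours mostly followed theirs.

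**Figure D4:**
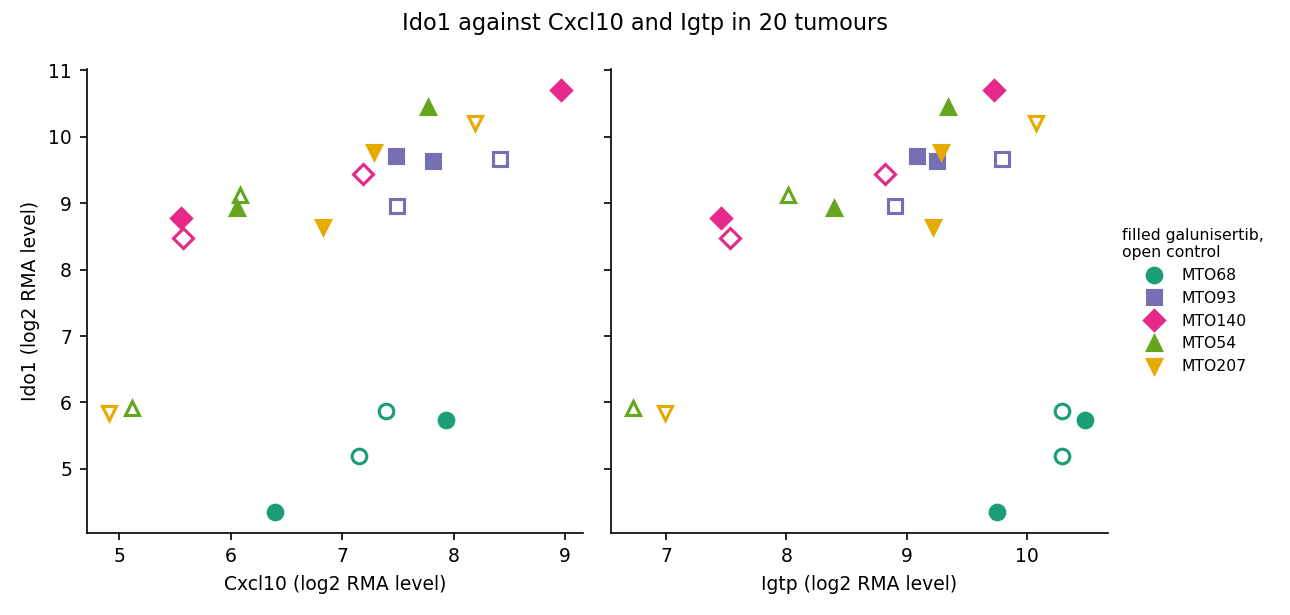
Log2 level of Ido1 (y axis) against that of Cxcl10 (left, x axis) and Igtp (right, x axis) in 20 tumours; symbols and colours give the line, filled symbols galunisertib and open symbols control. The 4 MTO68 tumours lie at 4.35 to 5.88 for Ido1. The second controls of MTO207 (5.84) and MTO54 (5.91) are about as low, but at lower Cxcl10 and Igtp. The 16 tumours outside MTO68, these controls included, lie along a rising band (r = 0.84 and 0.86).

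The 5 lines were compared with an F test in limma, and 3 of the 9 genes passed: Ido1 (F = 8.64, limma adjusted p = 0.00421), Irgm1 (F = 5.04, adjusted p = 0.0203) and Igtp (F = 3.88, adjusted p = 0.0407). Over all genes 51.9% passed, so the members' share is below the background. The mean of Ido1 was 5.29 ± 0.69 in MTO68 (SD, n = 4 tumours each). It was 8.60 ± 1.92 in MTO54, 8.62 ± 1.96 in MTO207, 9.35 ± 0.99 in MTO140 and 9.50 ± 0.36 in MTO93. Irgm1 averaged 7.79 ± 0.66 in MTO68. Then followed MTO93 (6.57 ± 0.49), MTO140 (6.54 ± 0.71), MTO207 (6.27 ± 0.84) and MTO54 (6.03 ± 0.68). Igtp averaged 10.21 ± 0.31 in MTO68. Next came MTO93 (9.26 ± 0.38), MTO207 (8.89 ± 1.33), MTO140 (8.38 ± 1.09) and MTO54 (8.12 ± 1.09). In each of the 3 orders the lines other than MTO68 differed from their neighbours by less than the SD of either. Gbp3, at 5.57 ± 1.09 in MTO68 (SD, n = 4) and 4.13 to 4.57 in the other lines, had limma adjusted p = 0.0661. The means of Cxcl9 ran from 8.01 in MTO54 to 9.74 in MTO93, those of Cxcl10 from 6.26 to 7.80 and those of Gbp2 from 8.27 in MTO140 to 9.32 in MTO93, with limma adjusted p between 0.352 and 0.723. The Igtp call was lost in 12 of 20 omissions of 1 array (adjusted p 0.0518 to 0.0991): without either control or the second treated tumour of MTO68, the second control or either treated tumour of MTO93, the first control of MTO140, either control or the second treated tumour of MTO54, or either treated tumour of MTO207. The Irgm1 call was lost without the first control or either treated tumour of MTO68 (adjusted p 0.0772, 0.0531 and 0.0647), whereas the Ido1 call held in all 20 omissions.

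Each line was then set against the mean of the other 4, a comparison added after the data were seen. In MTO68, 4 of the 9 genes passed, against 28.9% of all genes. Ido1 differed by -3.72 (SE 0.65, limma adjusted p = 0.000675), a mean of 5.29 against 9.02 in the other lines. Irgm1 was higher by 1.44 (SE 0.34, adjusted p = 0.00555), Igtp by 1.54 (SE 0.47, adjusted p = 0.0212) and Gbp3 by 1.30 (SE 0.38, adjusted p = 0.0186). Iigp1 differed by 1.07 (adjusted p = 0.166), Cxcl11 by -0.52 (adjusted p = 0.135), Cxcl10 by 0.30, Gbp2 by 0.07 and Cxcl9 by 0.06. The Igtp and Gbp3 calls were lost without the first control of MTO68 (adjusted p = 0.0789 and 0.0908) and without its second treated tumour (0.0725 and 0.130). None of the 9 genes passed for the other lines in limma, where 0.0129% of all genes were called for MTO93, 23.0% for MTO140, 3.70% for MTO54 and 17.9% for MTO207. At an unadjusted p under 0.05 were Ido1 in MTO93 (1.53, SE 0.65, adjusted p = 0.225) and Igtp and Irgm1 in MTO54 (-1.07, SE 0.47, and -0.76, SE 0.34, adjusted p = 0.266 and 0.275).

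Other genes of the pathway were read from lists, none of which is independent of earlier results. Of 11 tested genes of interferon-gamma signalling, 0 passed between treated and control tumours (limma), and 10 had a higher mean. The receptor genes Ifngr1 and Ifngr2 differed by 0.21 (SE 0.15) and 0.25 (SE 0.18), the kinase genes Jak1 and Jak2 by 0.15 (SE 0.17) and 0.04 (SE 0.22), and Irf1 by 0.17 (SE 0.16). Ifng itself exceeded the filter level in 1 of 20 tumours, between 3.51 and 4.45 in all, and was not tested. Cxcr3, the receptor of the 3 chemokines, ranged from 4.40 to 5.47 and differed by -0.02 (SE 0.10) with treatment. None of 5 other guanylate binding proteins and none of 4 other immunity-related GTPases passed with treatment. For type I interferon-stimulated genes 18 of 18 had a higher mean after treatment with a median of 0.32, and 0 passed.

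In MTO68 against the other lines, 4 of the 11 signalling genes passed, all higher: Stat2 by 1.69, Nlrc5 by 1.38, Irf9 by 1.09 and Irf8 by 0.62. Irf1 differed by -0.02 (adjusted p = 0.959). Among 5 genes of the CXCR3 axis, the chemokine genes Ccl5 (1.09) and Cxcl16 (-0.49) passed. Of the other immunity-related GTPases, Irgm2 (1.92) and Tgtp1 (1.87) passed among 4. None of the 5 other guanylate binding proteins passed, and the mean was higher in MTO68 for all 5. The proteasome subunit genes Psmb8 (1.18) and Psmb9 (0.77) passed among 9 further interferon-gamma-induced genes, whereas Cd274, which encodes PD-L1, differed by -0.02 and Wars by 0.09. Of 18 type I interferon-stimulated genes 16 passed, all higher, with a median of 1.11 and Usp18 (3.22), Dhx58 (2.67) and Ifit2 (2.56) as the largest. Of 7 enzymes of tryptophan and kynurenine metabolism other than Ido1, Tdo2, another enzyme of the first step, differed by -0.78 (limma adjusted p = 0.015) and 6 did not pass, Ido2 among them at -0.55. The background for all these counts is the 28.9% above.

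Markers of other cell types were compared in the same way, against the background of 28.9% for MTO68. Of 10 T cell markers Cd3g, Cd2 and Cd247 passed as higher in MTO68, by 0.65, 0.55 and 0.55. The mean was higher there for 7 of the 10 and lower for Cd28 (-0.13), Cd8a (-0.02) and Cd4 (-0.01). Of 8 cytotoxic lymphocyte markers Gzma, which encodes granzyme A, passed at 4.40. The summed level of cytotoxic markers, as a mean of 8 genes, lay between 5.76 and 5.98 in MTO68 and between 5.03 and 5.62 elsewhere. Without Gzma the ranges of the other 7 were 5.14 to 5.61 and 4.96 to 5.66, with means of 5.31 and 5.29, and Eomes (-0.68), Klrk1 (-0.15) and Gzmk (-0.13) had lower means in MTO68. The mean of 10 T cell markers lay between 5.67 and 6.14 in MTO68 and between 5.12 and 5.99 elsewhere. Of 11 macrophage markers C1qa, Fcgr1 and Cd14 passed as higher and Ccr2 as lower, and of 8 endothelial markers Cdh5 passed as higher and Emcn and Plvap as lower. Of 7 fibroblast markers Col1a2 and Pdgfrb passed as lower, and none passed of 5 dendritic cell, 4 neutrophil and 3 B cell markers. Of 11 epithelial markers Krt18 and Vil1 passed as higher and Cdx2, a transcription factor of intestinal identity, differed by -1.47. Between treated and control tumours 0 markers passed in any of these lists (limma), though 7 of 7 fibroblast markers had a lower mean after treatment, with a median of -0.62, and 11 of 11 epithelial markers a higher one, with a median of 0.26. The part of these cell types in the levels of the 9 genes was not tested.

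The level of each gene was set against a lymphocyte score, the mean of the 18 tested T cell and cytotoxic markers after centring, in 9 relations adjusted over the 9. The score ran only from -0.44 to 0.49 on the log2 scale. Among its markers Cd28 exceeded the filter level in 10 tumours, Gzmk in 15, Nkg7 in 19 and the rest in all 20. Whether the score follows the SD of the arrays was not tested. Igtp had r = 0.76 and rho = 0.83 with the score (n = 20 tumours, permutation p = 0.00015 and 1e-05, adjusted 0.00135 and 9e-05), and r = 0.73 without the 2 farthest tumours. Iigp1 (r = 0.65), Gbp3 (0.60), Irgm1 (0.58) and Cxcl10 (0.54) also passed, with permutation p values adjusted to 0.00747, 0.0153, 0.0158 and 0.0275. Gbp2 (0.43), Cxcl9 (0.39), Cxcl11 (0.13) and Ido1 (-0.35) did not pass by r. By rho Cxcl9 passed (0.52, permutation p adjusted to 0.0328), and Gbp2, Cxcl11 and Ido1 did not (adjusted 0.0624, 0.549 and 0.710). Within lines of 4 tumours the r of Igtp ran from -0.60 in MTO93 to 0.90 in MTO140, and that of Ido1 from -0.03 in MTO93 to 0.97 in MTO140. With the means of line and treatment removed 0 of 9 relations passed (r from 0.30 to 0.75, permutation by sign within the 10 pairs). Without MTO68, whose mean score of 0.30 (0.18 to 0.49) was the highest of the 5 lines, 6 of 9 passed by r over 16 tumours, and Ido1 had r = 0.34. By rho all 9 passed there (0.52 to 0.81, permutation p adjusted to between 0.00243 and 0.0403), with Ido1 at 0.62 (adjusted 0.0131). The mean score of MTO68 exceeded that of the other lines by 0.38 with Gzma and by 0.14 without it. With a score of the other 17 markers, chosen after the data were seen, 3 of 9 relations passed by r over 20 tumours and 5 over 16. Igtp (r = 0.63), Iigp1 (0.60) and Cxcl10 (0.58) then passed (permutation p adjusted to 0.0199 each), and Gbp3 (0.33) and Irgm1 (0.29) did not (adjusted 0.199 and 0.236). By rho with this score, Gbp3 (0.53) and Irgm1 (0.48) had unadjusted permutation p = 0.0182 and 0.0344, and Cxcl9 (0.70) had 0.00082. Ido1 alone was above 0.05 by rho (0.26, unadjusted permutation p = 0.272).

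Outside the 10 named genes, those whose pattern over 20 tumours was most like the mean of the 9 were Irf1 (r = 0.92), the guanylate binding protein genes Gbp7 (0.88) and Gbp10 (0.86), the immunity-related GTPase genes Tgtp1 (0.84) and Ifi47 (0.83), the MHC class II genes H2-Ab1 (0.84), Cd74 (0.83) and H2-DMb1 (0.81), the tryptophanyl-tRNA synthetase gene Wars (0.82) and Psmb9 (0.80). These are the 10 highest r values among all tested genes, so they describe a ranking and carry no test. Irf1 varied less than the 9 genes, between 7.89 and 9.25. None of the 10 passed between treated and control tumours in limma, where they differed by 0.05 for H2-Ab1 up to 0.61 for Tgtp1.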

How the data were processed

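The samples, groups and protocols are as the report gives them. The log2 values are those the authors deposited per probe set on the HT MG-430 PM array, made with RMA and affy per the submitters' processing notes (no version given in the sources used here). RMA compresses differences of dim probe sets. Of 45141 probe sets 28898 had a single symbol, 28689 of them matched to current symbols by Entrez ID, and the brightest on average stood for its gene. Treatment was fitted with limma 3.58.1 (R 4.3.3, eBayes with trend) with line as a block, and comparisons between lines came from the same fit. Effects within lines, and the test that they differ between lines, came from a mean for each of 10 groups with a shared spread. Tests were two-sided, with Benjamini-Hochberg at 0.05 over 15556 genes. The code was tested on simulated data. No 2 arrays held identical values. Correlations and promoter searches used Python 3.11.15, scipy 1.17.1 and pandas 2.3.3. The members and lists were chosen with earlier results of these data known. Named genes are the members, listed genes that passed or belong to the receptor pathway, and the 10 with the highest r with the members' mean, Gm, Rik and similar symbols passed over. Some listed genes that did not pass are named beside those that did: Cd274, Ido2, Eomes, Klrk1, Gzmk, Cd28, Cd8a and Cd4. Alternatives covered filter, probe set rule, scaling, weights, spread covariate, trend, block, and omission of each array or line. Setting each line against the rest, and leaving MTO68 out of correlations or Gzma out of the lymphocyte score, were chosen after seeing the data.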

Additional observations from a re-analysis of the deposited data

Results flagged for a closer look

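In each line (4 tumours) and each arm (10 tumours), the gap of the highest or lowest tumour to its nearest neighbour was set against the whole range of the group with Dixon's 95% critical value. Of 63 groups, 7 held a tumour that stood apart, and chance flags about 1 in 20. Cxcl11 was highest in the second control of MTO68 (3.885, under the filter level) and, among treated tumours, in the first of MTO140 (5.942). Gbp3 was highest in the first control of MTO93 (5.526) and, among treated tumours, in the second of MTO68 (6.792). Iigp1 was lowest among treated tumours in the second of MTO140 (6.057). Irgm1 was lowest in MTO68 in its second control (6.802), and Ido1 was lowest in MTO93 in its second control (8.964). The limma test for a treatment effect that differs between lines called 0 of the 9 genes, with 0 at an unadjusted p under 0.05.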

How the results depend on the processing

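The 0 calls among 9 members over the 5 lines held in limma in all 20 omissions of 1 array and all 15 other alternatives, and 0 of the members' values reversed (180 in omissions, 134 in the others). Their size moved more, as the report gives it. Over all genes, calls there went from 0 to between 0 and 43 in omissions and up to 166 with the array SD as covariate. With line as a random block (correlation 0.40) 0 members passed. Between lines 3 members passed, 5 with array weights (Cxcl11 and Gbp3 added) and 1 to 4 in omissions (1 without MTO68 control 1 or treated 2). Gbp3 passed there without MTO68 control 2, MTO93 control 1 or MTO207 control 1, and Cxcl11 without MTO140 treated 1. The Irgm1 call was lost with quantile normalization (adjusted p = 0.06) and the Igtp call with the SD covariate (adjusted p = 0.0685). In MTO68 against the other lines 4 members passed, 2 to 4 in omissions (2 without the same arrays). Gbp3 did not pass there with the SD covariate (0.90, adjusted p = 0.136). With array weights 1 member passed in MTO93 and 2 in MTO140 against the other lines, where the report has 0. The genes called, which set the background, ranged widely: 4852 to 12940 between lines (8080 in the report), 1600 to 10937 for MTO68 (4502), 1 to 8823 for MTO93 (2), 1114 to 5871 for MTO140 (3581), 122 to 2150 for MTO54 (576) and 26 to 8472 for MTO207 (2791), each against the other lines. Within lines they were 13 to 8323 for MTO68 (312), 0 to 4 for MTO93 (0), 0 to 26 for MTO140 (1), 0 to 9 for MTO54 (0) and 0 to 144 for MTO207 (0), and 0 to 2807 for an effect that differs between lines (10). Of 9 relations with the lymphocyte score 5 passed by r, 0 with line and treatment means removed and 3 without Gzma in the score. The cause of these shifts was not tested.

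Signs of log2 differences that no test called also turned. Against the other lines, MTO68 gave -0.15 for Cxcl9 and -0.12 for Gbp2 with quantile normalization, and -0.17 for Cxcl9 with array weights. With the SD covariate the treatment difference was -0.051 for Gbp3 and -0.20 for Irgm1 in MTO68, 0.047 for Irgm1 in MTO93 and -0.45 for Gbp3 in MTO207. With quantile normalization Irgm1 was 0.027 in MTO93. The mean of probe sets gave 0.033 for Iigp1 in MTO68 and -0.14 for Cxcl11 in MTO207, and median centring 0.080 for Iigp1 in MTO68. Correlations of Ido1 turned as well. With means removed r was 0.55 with the lymphocyte score, 0.66 with Gbp3 and 0.75 with Irgm1. Without MTO68 it was 0.34, 0.76 and 0.88, and without the 2 farthest tumours 0.28 with Gbp3, 0.17 with Irgm1 and -0.36 with Igtp. Omission of single arrays turned further signs. For MTO68 against the other lines, the signs that turned ran over Cxcl9 -0.25 to 0.49 and Gbp2 -0.20 to 0.52. For the treatment difference in MTO68, the signs that turned ran over Cxcl9 -0.90 to 0.14, Cxcl10 -0.87 to 0.66, Cxcl11 -0.26 to 0.011, Gbp2 -1.07 to 0.49, Iigp1 -0.32 to 0.29, Igtp -0.54 to 0.19, Irgm1 -0.013 to 1.31 and Ido1 -1.19 to 0.20. For the treatment difference in MTO93, the signs that turned ran over Cxcl9 -0.38 to 0.61, Cxcl10 -0.76 to 0.16, Gbp2 -0.73 to 0.48, Gbp3 -1.20 to 0.22, Iigp1 -0.78 to 0.43, Igtp -0.62 to 0.26 and Irgm1 -0.62 to 0.56. For the treatment difference in MTO140, the signs that turned ran over Cxcl10 -0.82 to 2.58, Cxcl11 -0.13 to 2.09, Gbp2 -0.0089 to 1.97, Gbp3 -0.056 to 1.29, Iigp1 -1.44 to 1.96, Igtp -0.72 to 1.55, Irgm1 -0.60 to 1.08 and Ido1 -0.18 to 1.74. For the treatment difference in MTO54, the signs that turned ran over Gbp3 -0.0015 to 1.21. For the treatment difference in MTO207, the signs that turned ran over Cxcl9 -1.42 to 3.38, Cxcl10 -1.13 to 2.15, Cxcl11 -0.34 to 0.36, Gbp2 -1.01 to 3.24, Gbp3 -0.83 to 0.88, Iigp1 -1.01 to 2.49, Igtp -0.82 to 2.27, Irgm1 -0.57 to 1.40 and Ido1 -0.99 to 3.37. No paired analysis was possible because the labels carry no replicate numbers shared between control and treated tumours. Depth has no counterpart on arrays: levels near 4.16 (Cxcl11, Gbp3, Ifng) lie close to the bottom of the scale, and 2 tumours per group limit every difference within a line.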
